A study of Mus musculus with 57 samples.

Results

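The 10 genes described here are Nfe2l2, which encodes the transcription factor NRF2, and a set of antioxidant genes known as its targets: Nqo1, Hmox1, Gclm, Gclc, Txnrd1, Srxn1, Slc7a11, Gsr and Prdx1. They were taken by symbol from a given list; the rule uses no measured value, but the list was drawn up with earlier results of these data known. All 10 were found in both count tables, out of 50565 genes in that of the sex experiment and 53278 in that of the LPS experiment, and all 10 passed the filter on low counts in both.

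NRF2 is kept low in unstressed cells by KEAP1, which carries it to a ubiquitin ligase for degradation. Oxidants and electrophiles modify KEAP1, and NRF2 then accumulates, pairs with a small MAF protein and binds antioxidant response elements in DNA. Its targets make and recycle glutathione, supply reduced thioredoxin, break down haem and detoxify quinones. In microglia and other macrophages the same genes also answer to inflammatory signals, with BACH1, NF-kappaB and ATF4 acting on several of them.

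The study sequenced polyadenylated RNA of CD11b-positive brain cells, labelled microglia, from adult wild-type mice (WT) and littermates lacking the nucleotide receptor P2RY12 (KO). The sex experiment has 5 KO samples of each sex and 4 WT samples of each sex, with no treatment in the labels. In the LPS experiment, mice are labelled LPS, for lipopolysaccharide injected into the peritoneum at 1 mg/kg, or ns, which the labels do not define. The time from injection to collection, the age in weeks, the sex of these mice and how the KO allele was made are not given in the labels. The LPS experiment has 8 KO ns, 8 KO LPS, 8 WT ns and 9 WT LPS libraries, in 2 library sets that each hold all 4 groups. WT LPS 8 and WT LPS 9 were much closer than any other pair of the same group (chi-square over its degrees of freedom 1.86, the next pair 8.32), and were summed and counted as 1 sample. The labels do not say that every library came from its own animal, so the p-values measure the spread between these libraries.

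Before the results, the libraries that stand apart need to be named. P2ry12 itself lay at 3195 to 5928 CPM in male WT and 3007 to 4880.0 in female WT against 439 to 526.4 and 309 to 438 in the KO groups, CPM being counts per M (mega) counts of a library after TMM scaling. In the LPS experiment it lay at 3536 to 5476 CPM with a median of 4304 in WT ns and 588 to 1169 CPM with a median of 662 in KO ns. LPS libraries had less of it, 405 to 1019.9 CPM in WT and 85.2 to 148 in KO. The WT libraries of number 2 go against their labels. WT ns 1 and WT ns 5 had 1814 and 2426 CPM of the acute-phase gene Saa3, in the range of LPS libraries, and WT LPS 1 and WT LPS 6 had 1.61 and 2.98. WT ns 8 had 64.7 CPM of Saa3 and 64.9 of the macrophage receptor gene Marco, against at most 4.19 and 1.47 in the other 5 WT ns samples. It was kept, and without it the number of the 10 genes called was the same in all 5 comparisons of the LPS experiment. The number 2 libraries are called "labelled WT ns" and "labelled WT LPS" below and form groups of their own, which leaves 6 samples each in WT ns and WT LPS. In 4 libraries (WT LPS 6, WT LPS 7, KO ns 6 and KO LPS 5) mitochondrially encoded genes took 5.62% to 8.55% of counts and ribosomal protein genes 3.87% to 5.65%, against at most 3.03% elsewhere for either. Male WT 5 and female WT 2 stand apart for neutrophil genes: the summed level of 8 neutrophil markers was 48214 and 28621 CPM there, against 720.0 to 7667 in the other samples of the sex experiment. Library totals, in M counts, were 58.5 to 319 in the sex experiment and 15.9 to 168 for the LPS libraries. Summed microglia markers lay at 23675 to 39192 CPM in the sex experiment, and all the microglia markers found in the tables were detected. P2ry12 itself is among these markers, so their sum is not independent of genotype.

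The promoters are shown because NRF2 acts on its targets through the antioxidant response element. The RefSeq promoter windows (build GRCm38.p6, 250 bases before to 50 after each start) matched 7 of the 10 genes; Hmox1, Gclc and Gsr were not matched. The core motif searched was TGACNNNGC on both strands. It was found in 5 of the 7 matched genes, against 14.0% of the 27025 genes and 12.4% of the 32851 windows of the table. The stretches around the 5 matches follow, 5′ to 3′ on the gene's strand, with the 9 bases of the match in capitals.
Nfe2l2: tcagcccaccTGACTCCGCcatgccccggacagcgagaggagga
Gclm: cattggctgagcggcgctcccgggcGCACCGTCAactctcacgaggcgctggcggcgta
Txnrd1: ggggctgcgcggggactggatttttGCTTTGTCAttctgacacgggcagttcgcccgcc
Srxn1: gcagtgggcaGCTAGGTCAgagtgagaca
Prdx1: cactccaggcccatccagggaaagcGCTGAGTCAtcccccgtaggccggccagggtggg
The Nfe2l2 stretch is chr2:75704870-75704913 on the minus strand, with its match at bases -240 to -232 from the start. Those of Gclm (chr3:122245398-122245456), Txnrd1 (chr10:82859089-82859147), Srxn1 (chr2:152105542-152105570) and Prdx1 (chr4:116685441-116685499) are on the plus strand. Their matches read on the other strand and begin at bases -134, -92, 29 and -133. Txnrd1 has 3 windows in the table, of which 1 holds the motif. The Prdx1 match also holds the AP-1 motif TGANTCA, which is in 7.81% of all windows and overlaps the core motif where that reads TGACTCAGC. The windows of Nqo1 and Slc7a11 hold no match, which says only that these letters are not in those 300 bases.

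LPS did not move the 10 genes alike. The haem oxygenase gene Hmox1, Txnrd1 and Srxn1 of the thioredoxin arm and Nfe2l2 itself rose in both genotypes, Slc7a11 and Prdx1 rose in WT, the glutathione synthesis genes Gclc and Gclm had negative fold changes in both, and Gsr and Nqo1 were called in neither. In KO, 5 of the 10 genes were called at an adjusted p under 0.05 (4 higher, 1 lower), where 26.2% of 17954 tested genes were called (11.9% higher and 14.2% lower). In WT, 6 of 10 were called, all higher, where 28.1% of tested genes were called (13.5% higher and 14.6% lower). The median log2 fold change of the 10 genes was 0.36 in KO and 0.90 in WT, against -0.03 and -0.02 over all tested genes. Within library set 1 alone, 7 of 10 were called in KO and 6 in WT, where 40.6% and 38.4% of all tested genes were, and within set 2 alone 1 in each genotype, where 3.76% and 2.77% of all tested genes passed. All 4 libraries rich in mitochondrial counts are in set 2. Without them, 7 of the 10 were called in KO and 8 in WT, where 41.0% and 38.7% of all genes were. With the number 2 libraries put back into their labelled WT groups, 0 of 10 genes were called in WT by edgeR, as were 0 of all genes. The summed microglia markers were lower under LPS, at 30924 to 37142 CPM in KO ns, 20903 to 25588 in KO LPS, 23372 to 40271 in WT ns and 16819 to 24375 in WT LPS. The KO ranges did not overlap and the WT ranges did; the part of this shift in the changes of the 10 genes was not tested. Bulk counts of this kind cannot tell fewer cells of a type from less RNA per cell.

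**Figure D1:**
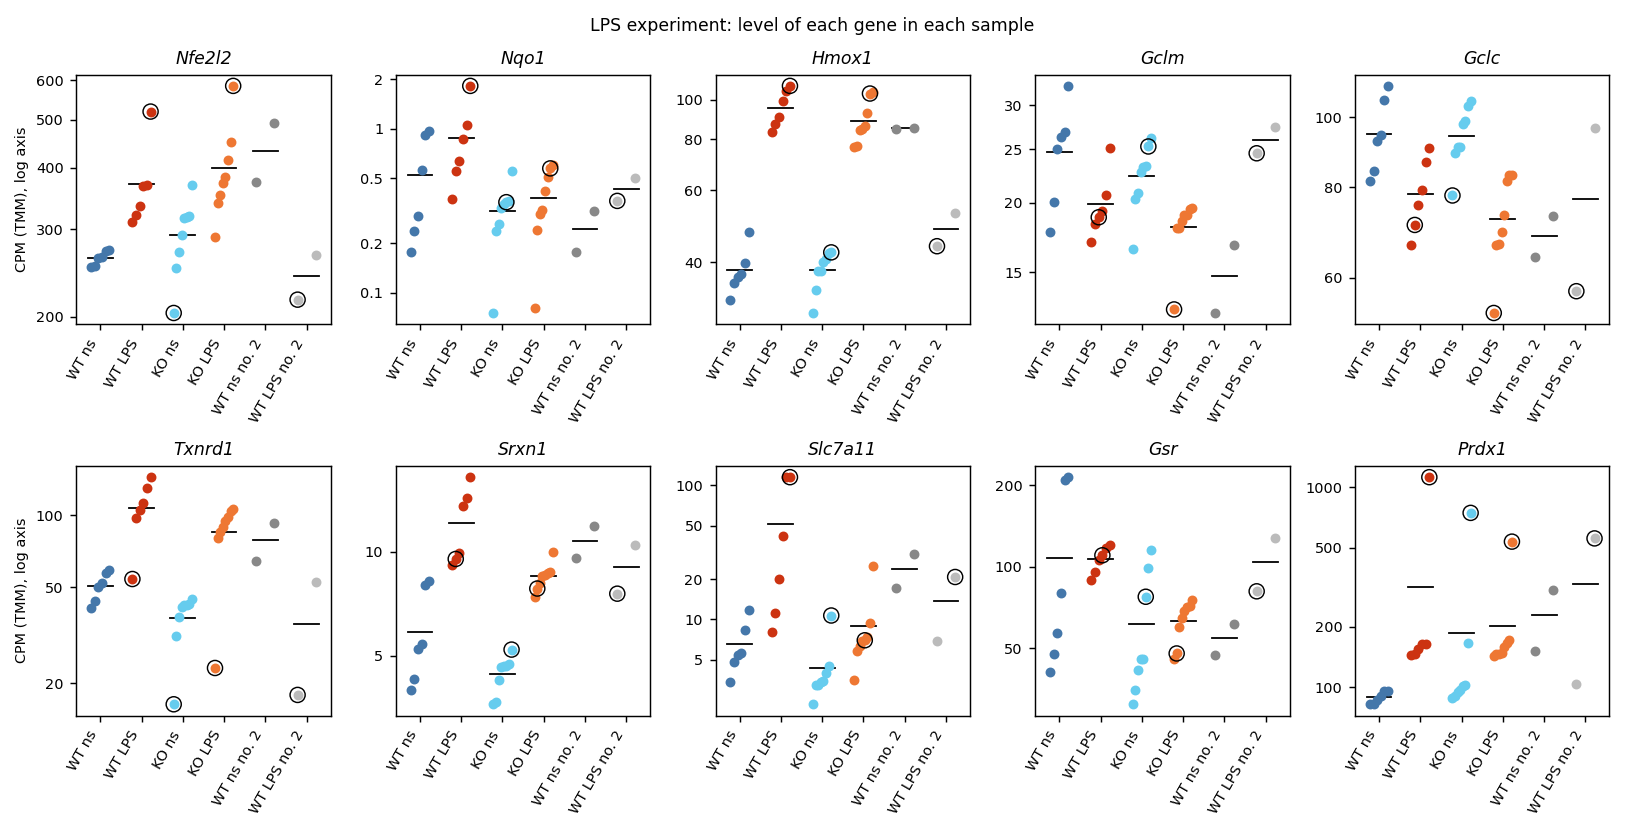
Level of each of the 10 genes in the LPS experiment, in CPM on a log axis; each point is 1 sample, the line is the mean of its group, and the grey columns are the WT libraries of number 2 under their labels. Ringed points are the 4 libraries with over 5% mitochondrial counts. Hmox1 lies between 76.6 and 108 CPM in all WT and KO LPS samples and at or below 47.6 in all ns samples outside the grey columns.

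Nfe2l2 had at least 2849 counts in every library. It lay at 252 to 273 CPM with a median of 263 in WT ns and at 309.9 to 519 CPM with a median of 350.2 in WT LPS, so the groups did not overlap. In KO it lay at 203 to 369.5 CPM with a median of 304 in ns and 289.8 to 585 CPM with a median of 378 in LPS, and these ranges overlapped. LPS over ns, its log2 fold change was 0.49 ± 0.16 (SE; edgeR adjusted p = 0.0216) in WT and 0.44 ± 0.14 (SE; edgeR adjusted p = 0.0172) in KO. The call in WT was lost without WT LPS 7, the highest sample at 519 CPM (0.38 ± 0.15, edgeR adjusted p = 0.0732), and was kept without all 4 libraries rich in mitochondrial counts (0.40 ± 0.11, edgeR adjusted p = 0.00435). In library set 1 the WT change was 0.37 ± 0.14 (edgeR adjusted p = 0.0552) and the KO change 0.37 ± 0.12 (edgeR adjusted p = 0.0268). The KO call was lost in 5 of 14 alternatives, those with no filter, only the groups compared, set 2 alone, the number 2 libraries in their labelled groups or number 2 left out of all groups, with edgeR adjusted p between 0.0534 and 0.318. The WT call was lost in 4 of 14, those with no filter, each set alone or the number 2 libraries in their labelled groups. NRF2 is regulated mainly through the stability of its protein, which these counts do not measure.

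Hmox1, the inducible haem oxygenase that breaks haem down to biliverdin, iron and carbon monoxide, had the smallest adjusted p of the 10 genes in both genotypes. It lay at 32.3 to 47.6 CPM with a median of 37.1 in WT ns, 83.5 to 108 CPM with a median of 95.2 in WT LPS, 30.1 to 42.3 CPM with a median of 39.1 in KO ns and 76.6 to 105 CPM with a median of 85.6 in KO LPS. No ns sample reached any LPS sample in either genotype. The log2 fold change was 1.32 ± 0.12 (SE; edgeR adjusted p = 2.57e-09) in WT and 1.21 ± 0.10 (SE; edgeR adjusted p = 4.85e-10) in KO, that is 2.50-fold and 2.32-fold. It was the 1 gene of the list called within each library set alone, in set 1 at 1.27 ± 0.16 in WT and 1.20 ± 0.14 in KO and in set 2 at 1.42 ± 0.25 and 1.35 ± 0.22. Libraries labelled WT ns, 1 and 5, had 85.5 and 85.1 CPM, inside the range of the KO LPS samples. Those labelled WT LPS 1 and WT LPS 6 had 52.7 and 43.8 CPM, below every other LPS sample.

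Txnrd1 encodes cytosolic thioredoxin reductase, which keeps thioredoxin reduced with NADPH. It lay at 41.1 to 59.1 CPM with a median of 51.4 in WT ns and 54.2 to 144 CPM with a median of 108 in WT LPS, and at 16.3 to 44.8 CPM with a median of 41.7 in KO ns and 23.1 to 106 CPM with a median of 92.0 in KO LPS. Txnrd1 rose in both, with a log2 fold change of 1.08 ± 0.27 (SE; edgeR adjusted p = 0.00320) in WT and 1.21 ± 0.23 (SE; edgeR adjusted p = 0.000237) in KO. The lowest LPS samples, WT LPS 7 at 54.2 and KO LPS 5 at 23.1 CPM, are both among the libraries rich in mitochondrial counts, as are KO ns 6 at 16.3 and the labelled WT LPS 6 at 17.9. Without those libraries the ns range reached 59.1 CPM and the LPS range began at 80.6, and the changes were 1.22 ± 0.11 in WT and 1.26 ± 0.10 in KO (edgeR adjusted p = 4.17e-09 and 2.94e-10). The part of mitochondrial content in the lower values was not tested. A gene model on the opposite strand, Gm38560, lies inside Txnrd1 and held 5.29% to 14.9% as many counts as it in the sex experiment.

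Srxn1 encodes sulfiredoxin, which repairs over-oxidised peroxiredoxins. Its levels were 3.99 to 8.24 CPM with a median of 5.31 in WT ns, 9.12 to 16.4 CPM with a median of 11.7 in WT LPS, 3.62 to 5.21 CPM with a median of 4.64 in KO ns and 7.41 to 9.95 CPM with a median of 8.53 in KO LPS. The ns and LPS samples did not overlap within either genotype. Srxn1 rose by a log2 fold change of 1.05 ± 0.18 (SE; edgeR adjusted p = 7.60e-05) in WT and 0.93 ± 0.16 (SE; edgeR adjusted p = 4.96e-05) in KO. Of the labelled WT LPS libraries, WT LPS 1 had 10.4 and WT LPS 6 7.56 CPM, and of the labelled WT ns libraries, WT ns 1 had 9.58 and WT ns 5 11.8. The 2 pairs overlapped, unlike those of Hmox1.

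Prdx1, a peroxiredoxin that reduces hydrogen peroxide at the expense of thioredoxin, lay at 81.9 to 95.6 CPM with a median of 88.2 in WT ns and 145 to 1126 CPM with a median of 159 in WT LPS. In KO it lay at 88.2 to 746 CPM with a median of 98.9 in ns and 143 to 535 CPM with a median of 153 in LPS. The highest values of the experiment, 1126 CPM in WT LPS 7, 746 in KO ns 6, 556 in the labelled WT LPS 6 and 535 in KO LPS 5, belong to the 4 libraries rich in mitochondrial counts. With all samples, the log2 fold change was 1.57 ± 0.50 (SE; edgeR adjusted p = 0.0179) in WT and 0.28 ± 0.42 (SE; edgeR adjusted p = 0.694) in KO. Without those 4 libraries it was 0.85 ± 0.15 in WT and 0.59 ± 0.14 in KO, and both passed (edgeR adjusted p = 8.87e-05 and 0.00107). Prdx1 then lay at 81.9 to 165 CPM in ns samples and 143 to 171 in LPS samples, with 1 ns sample, KO ns 5 at 165, inside the LPS range. Without WT LPS 7 alone the WT change was 0.91 ± 0.44 and did not pass (edgeR adjusted p = 0.141). In set 1, which holds none of these libraries, the changes were 0.92 ± 0.09 and 0.75 ± 0.07. A pseudogene named Prdx1-ps is annotated, so short reads of Prdx1 may be shared with a near-identical copy.

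**Figure D2:**
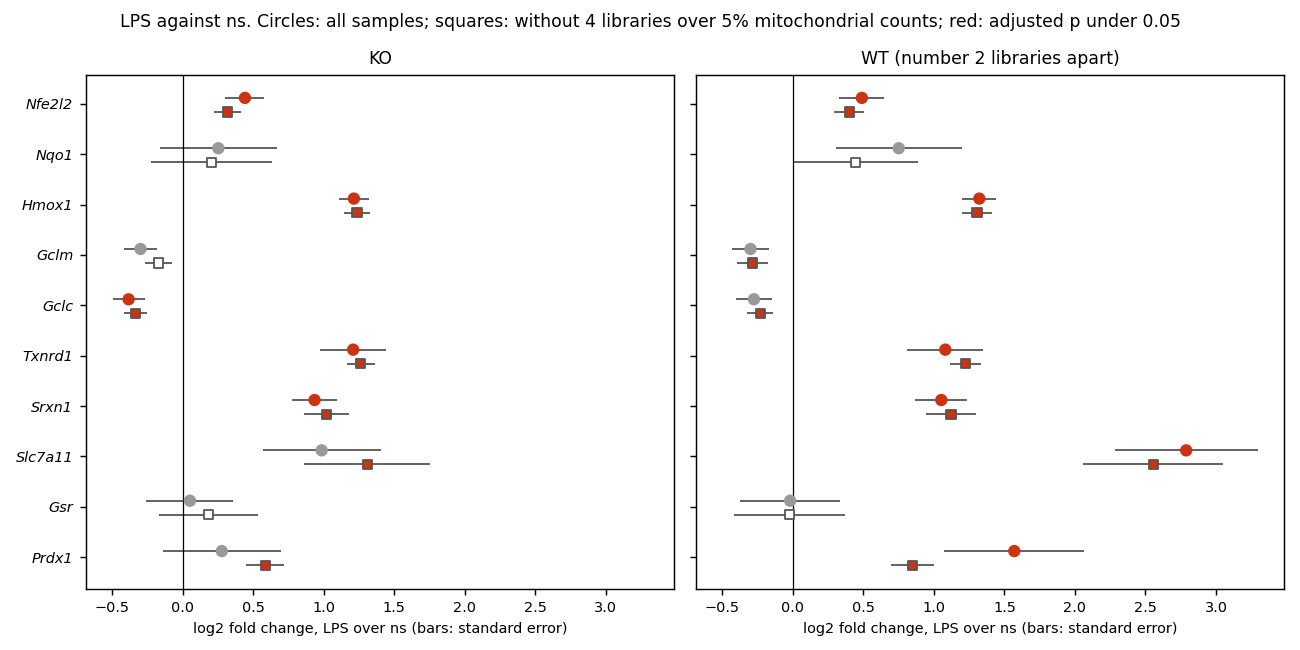
Log2 fold change of LPS over ns for each gene in KO and WT, with bars of 1 standard error; circles use all samples and squares leave out the 4 libraries with over 5% mitochondrial counts, and red marks an adjusted p under 0.05. Hmox1, Txnrd1, Srxn1 and Nfe2l2 are red in all 4 positions, and Prdx1 moves from 1.57 to 0.85 in WT.

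The glutathione arm was mixed. Gclc, the catalytic subunit of glutamate-cysteine ligase, which carries out the first step of glutathione synthesis, lay at 81.7 to 110.4 CPM with a median of 93.6 in WT ns and 66.6 to 90.7 CPM with a median of 77.4 in WT LPS. In KO it lay at 77.9 to 105 CPM with a median of 94.4 in ns and 53.6 to 83.3 CPM with a median of 71.3 in LPS, and both pairs of ranges overlapped. Gclc fell in KO, with a log2 fold change of -0.38 ± 0.11 (SE; edgeR adjusted p = 0.0116). The value in WT was -0.28 ± 0.13 (SE; edgeR adjusted p = 0.116). For Gclm, the modifier subunit of the same enzyme, the levels were 16.5 to 26.2 CPM with a median of 22.97 in KO ns and 12.9 to 19.6 CPM with a median of 18.8 in KO LPS. The log2 fold change of Gclm was -0.30 ± 0.12 (SE; edgeR adjusted p = 0.0545) in KO and -0.30 ± 0.13 (SE; edgeR adjusted p = 0.0911) in WT. Without the 4 libraries rich in mitochondrial counts, Gclm passed in WT (-0.29 ± 0.11, edgeR adjusted p = 0.0386) and so did Gclc (-0.23 ± 0.09, edgeR adjusted p = 0.0476). In KO, Gclm was then -0.17 ± 0.10 (edgeR adjusted p = 0.160).

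Slc7a11, the light chain of the cystine-glutamate antiporter that brings in cystine for glutathione synthesis, ranged from 2.34 to 115 CPM over the LPS experiment. It lay at 3.41 to 11.7 CPM with a median of 5.52 in WT ns and 8.10 to 115 CPM with a median of 30.9 in WT LPS. The WT LPS samples were 8.10, 11.1, 20.1, 41.7, 114 and 115 CPM, in rising order, so the lowest lie within the ns range and the highest are far above it. In KO it lay at 2.34 to 10.7 CPM with a median of 3.45 in ns and 3.55 to 24.9 CPM with a median of 6.97 in LPS. KO LPS 7, at 24.9 CPM, is the 1 KO LPS sample above 9.43. The Slc7a11 log2 fold change was 2.79 ± 0.51 (SE; edgeR adjusted p = 0.000121) in WT, a rise, and 0.98 ± 0.42 (SE; edgeR adjusted p = 0.0844) in KO. Without the 4 libraries rich in mitochondrial counts it was 2.55 ± 0.49 in WT and 1.31 ± 0.44 in KO, and both passed (edgeR adjusted p = 0.000210 and 0.0205). The labelled WT ns libraries had 17.1 and 30.6 CPM, and the labelled WT LPS libraries 6.93 and 20.7.

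Gsr, glutathione reductase, which returns oxidised glutathione to its reduced form, did not pass in either genotype, with log2 fold changes of -0.02 ± 0.35 (SE; edgeR adjusted p = 0.976) in WT and 0.05 ± 0.31 (SE; edgeR adjusted p = 0.931) in KO. Its levels were 41.0 to 214 CPM with a median of 68.3 in WT ns, 89.3 to 121 CPM with a median of 108 in WT LPS, 31.1 to 115 CPM with a median of 45.6 in KO ns and 45.8 to 75.6 CPM with a median of 66.6 in KO LPS. The highest samples, at 214 and 209 CPM, were WT ns 3 and WT ns 8, which also had the highest summed neutrophil markers of the experiment, 17340.0 and 16152 CPM. That sum was 323 to 17340.0 in WT ns, 1675 to 12931 in WT LPS, 291 to 9548 in KO ns and 1000.2 to 4159 in KO LPS, and 0 of the 8 markers were at 0 in all libraries. In a fit with the neutrophil markers as a covariate, the Gsr change was 0.44 ± 0.17 in WT (edgeR adjusted p = 0.0525) and 0.16 ± 0.15 in KO (edgeR adjusted p = 0.455).

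Nqo1, the quinone reductase often used as the standard readout of NRF2, was barely detected. It lay at 0.178 to 0.969 CPM with a median of 0.428 in WT ns, 0.372 to 1.82 CPM with a median of 0.750 in WT LPS, 0.0754 to 0.552 CPM with a median of 0.339 in KO ns and 0.0810 to 0.601 CPM with a median of 0.368 in KO LPS. These levels rest on 2 to 58 counts per sample. The log2 fold change was 0.75 ± 0.45 (SE; edgeR adjusted p = 0.222) in WT and 0.25 ± 0.41 (SE; edgeR adjusted p = 0.721) in KO. With the neutrophil covariate the WT value was 1.06 ± 0.37 and passed (edgeR adjusted p = 0.0312).

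The comparison of KO with WT asks whether loss of P2RY12 alters the set, before or after LPS. In ns samples 0 of the 10 genes were called, where 0.0891% of tested genes were; 2 had an unadjusted p under 0.05, as had 9.27% of all tested genes, and DESeq2 called 0. Gsr had a log2 difference (KO over WT) of -0.82 ± 0.33 (SE; edgeR adjusted p = 0.463) and Srxn1 of -0.40 ± 0.17 (SE; edgeR adjusted p = 0.486). In WT ns 3 and WT ns 8 the high Gsr comes with the neutrophil markers given above, and with the neutrophil covariate the Gsr difference was -0.30 ± 0.16 (edgeR adjusted p = 0.581). For Hmox1 the 95% interval of the difference was -0.23 to 0.23, and for Nfe2l2 -0.15 to 0.46. Prdx1 differed by 0.80 ± 0.46 (SE; edgeR adjusted p = 0.590) with KO ns 6 included and by 0.25 ± 0.14 (edgeR adjusted p = 0.429) without the libraries rich in mitochondrial counts.

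In LPS samples 1 of the 10 genes was called, Slc7a11, where 0.078% of tested genes were. Of the 10, 9 had a negative difference, with a median of -0.41 against -0.04 over all tested genes. The 95% intervals of Hmox1, Gclc, Gclm, Txnrd1 and Prdx1 included 0. The share of all tested genes with a negative difference is not given here, and the 10 genes were not tested as a set. Slc7a11 was lower in KO LPS than in WT LPS by a log2 difference of -2.42 ± 0.45 (SE; edgeR adjusted p = 0.0180), with a 95% interval of -3.34 to -1.49. The groups overlapped, at 3.55 to 24.9 CPM in KO and 8.10 to 115 in WT. This call was lost without any 1 of WT LPS 3, WT LPS 7, WT LPS 8+9, KO LPS 3, KO LPS 6 or KO LPS 8, with edgeR adjusted p between 0.0513 and 0.0761. Within library set 1 the difference was -1.95 ± 0.42 (edgeR adjusted p = 0.134) and within set 2 -2.68 ± 0.77 (edgeR adjusted p = 1.00). Without the libraries rich in mitochondrial counts it was -2.07 ± 0.46 (edgeR adjusted p = 0.111), and with the number 2 libraries in their labelled groups -2.14 ± 0.51 (edgeR adjusted p = 0.0989). The difference kept its sign in each of these. The WT LPS samples highest in Slc7a11, WT LPS 7 and WT LPS 8+9, had summed neutrophil markers of 12931 and 1734 CPM, and with the neutrophil covariate the difference was -2.32 ± 0.44 (edgeR adjusted p = 0.0207).

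The other differences under LPS that had an unadjusted p under 0.05, as had 6.10% of all tested genes, were those of Nqo1, Srxn1 and Gsr. They were -1.20 ± 0.42 (SE; edgeR adjusted p = 0.568), -0.52 ± 0.17 (SE; edgeR adjusted p = 0.490) and -0.75 ± 0.33 (SE; edgeR adjusted p = 0.735). Of the Srxn1 values, KO LPS samples lay at 7.41 to 9.95 CPM and WT LPS samples at 9.12 to 16.4, which overlap. Of Gsr, the KO LPS samples lay at 45.8 to 75.6 CPM, all below the WT LPS samples at 89.3 to 121. The labelled WT ns libraries, whose Saa3 was in the range of LPS libraries, had 47.3 and 61.6 CPM of Gsr, inside the KO LPS range. Those labelled WT LPS had 81.2 and 127 CPM. How many of all tested genes separate KO LPS from WT LPS samples is not given here. With the neutrophil covariate the Gsr difference was -0.58 ± 0.16 (edgeR adjusted p = 0.303). For Hmox1 the difference was -0.11 ± 0.11 (-0.34 to 0.12), for Nfe2l2 0.11 ± 0.15 (-0.20 to 0.41) and for Txnrd1 -0.32 ± 0.25 (-0.83 to 0.19), each with its 95% interval in parentheses. All 3 intervals lie within 1 log2 unit of 0.

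The genotype-by-LPS interaction, which tests whether the response itself differs, called 0 of the 10 genes by edgeR, and 0% of all genes; 1 of the 10 had an unadjusted p under 0.05, as had 4.96% of all tested genes, and DESeq2 called 0. That gene was Slc7a11, at -1.80 ± 0.64 (SE; unadjusted p = 0.00827 by edgeR's quasi-likelihood test, edgeR adjusted p = 0.784). The interaction of Prdx1 was -1.29 ± 0.65 (SE; edgeR adjusted p = 0.784) and that of Hmox1 -0.11 ± 0.16 (SE; edgeR adjusted p = 0.883). A response that passed in 1 genotype and not in the other, as for Gclc, Slc7a11 and Prdx1, is therefore not shown to differ between the genotypes. The 2 LPS contrasts and the 2 KO contrasts share their samples.

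**Figure D3:**
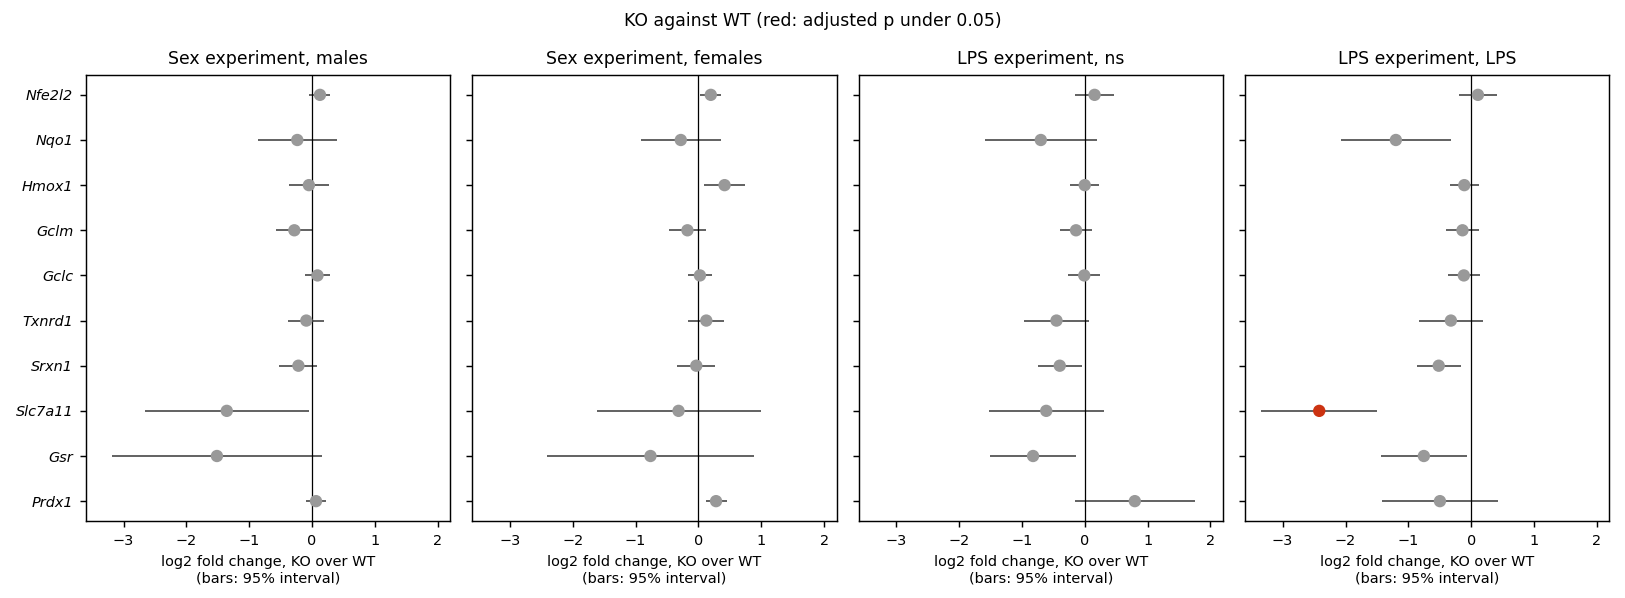
Log2 difference of KO over WT for each gene in the 4 settings, with bars giving the 95% interval and red marking an adjusted p under 0.05. The 1 red point is Slc7a11 under LPS, at -2.42, and the widest intervals are those of Gsr and Slc7a11 in the sex experiment.

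In the sex experiment, which asks whether KO and WT differ in males, in females or on average, 0 of the 10 genes were called in any comparison by edgeR or DESeq2. The share of all tested genes called was 0.00946% in males, 0.164% in females, 0.432% averaged over the sexes and 0% for the sex-by-genotype interaction. An unadjusted p under 0.05 was seen for 1, 3, 3 and 1 of the 10 genes, in that order, and for 6.85%, 5.22%, 9.02% and 2.77% of all tested genes. Nfe2l2 was 273, 273, 286 and 291 CPM in the female WT samples and 297, 357, 317, 309.9 and 328 in the female KO samples, so the groups did not overlap. In males it was 304, 259, 247 and 289.8 CPM in WT and 327, 322, 275, 281 and 295 in KO, and these overlapped. How many of all tested genes separate the female groups in this way is not given here. The log2 difference of Nfe2l2 was 0.20 ± 0.08 (SE; edgeR adjusted p = 0.738) in females and 0.12 ± 0.08 (SE; edgeR adjusted p = 0.785) in males. Averaged over the sexes it was 0.16 ± 0.06 (SE; edgeR adjusted p = 0.386). This average passed when only genes with a mean of at least 5 CPM were tested (0.16 ± 0.04, edgeR adjusted p = 0.0411). The share of all genes called under that filter is not given here.

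Prdx1 was 86.3, 87.4, 91.9 and 88.8 CPM in female WT and 93.7, 101, 103, 117 and 123 in female KO. All female KO samples were above all female WT samples, and how many of all tested genes separate in this way is not given here. In males the WT samples were 95.5, 90.4, 90.3 and 99.8 CPM and the KO samples 100.2, 104, 86.5, 99.3 and 100.4. The log2 difference was 0.28 ± 0.08 (SE; edgeR adjusted p = 0.240) in females, 0.06 ± 0.08 (SE; edgeR adjusted p = 0.972) in males and 0.17 ± 0.05 (SE; edgeR adjusted p = 0.309) on average.

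Hmox1 was 43.3, 53.6, 53.4 and 45.0 CPM in female WT and 67.7, 58.4, 50.1, 68.4 and 80.9 in female KO. Female KO 3 lies inside the female WT range and the other female KO samples above it. Ribosomal protein genes took 0.816 to 0.999% of counts in female KO and 0.663 to 0.799% in female WT, without overlap. The summed level of 6 border macrophage markers was 239 to 1150.1 CPM in female KO, highest in female KO 4 and 5, and 216 to 571 in female WT, and 0 of the 6 were at 0 in all libraries. Their part in the female Nfe2l2, Prdx1 and Hmox1 values was not tested. The Hmox1 log2 difference was 0.42 ± 0.15 (SE; edgeR adjusted p = 0.643) in females and -0.05 ± 0.15 (SE; edgeR adjusted p = 0.997) in males, where samples lay at 38.2 to 58.8 CPM in WT and 39.0 to 52.9 in KO. The interaction with sex was 0.47 ± 0.21 (SE; unadjusted p = 0.0419 by edgeR's quasi-likelihood test, edgeR adjusted p = 0.999).

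Gsr and Slc7a11 had the largest differences in the sex experiment, and both turn on male WT 5 and female WT 2. Gsr was 59.4, 62.0, 115 and 644 CPM in male WT and 39.4, 404, 62.2 and 54.0 in female WT, where the values over 400.0 are those of these samples. The KO samples lay at 51.5 to 94.8 CPM in males and 53.8 to 136 in females. Slc7a11 was 61.2 CPM in male WT 5 and 29.2 in female WT 2, against 6.92 to 17.02 in the other 16 samples. Averaged over the sexes the log2 difference of Gsr was -1.14 ± 0.55 (SE; edgeR adjusted p = 0.570) and that of Slc7a11 -0.84 ± 0.43 (SE; edgeR adjusted p = 0.599). Without these samples the signs turned, to 0.32 ± 0.24 and 0.21 ± 0.15 (edgeR adjusted p = 0.988 and 0.962), and with the neutrophil covariate the values were -0.07 ± 0.11 and -0.20 ± 0.22.

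**Figure D4:**
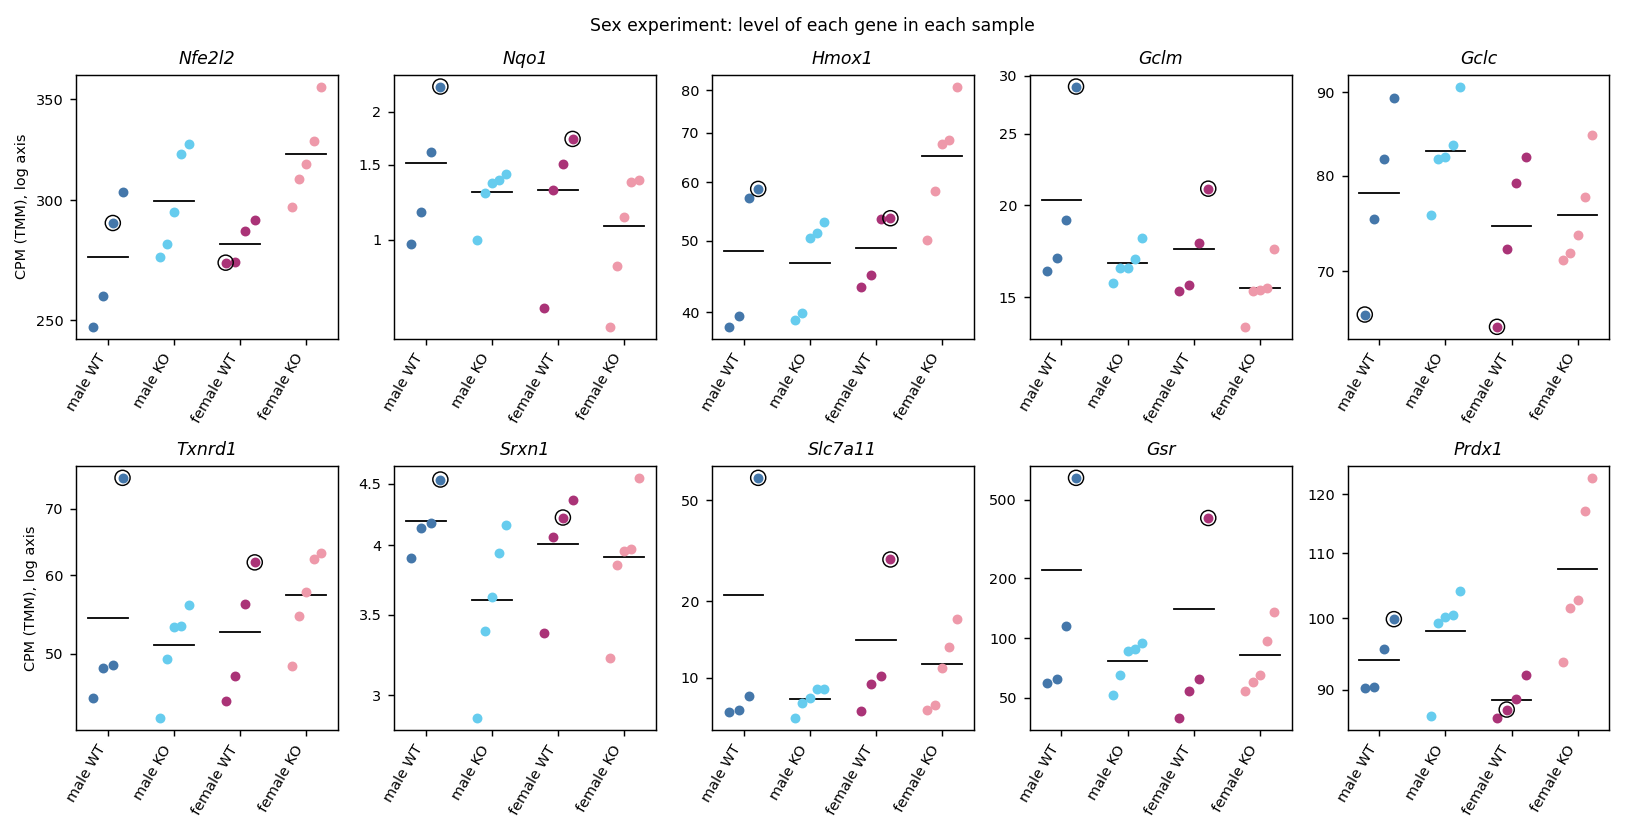
Level of each gene in the sex experiment, in CPM on a log axis; each point is 1 sample, the line is the mean of its group and the ringed points are male WT 5 and female WT 2. In Gsr and Slc7a11 the ringed samples lie above all others, at 644 and 404 CPM for Gsr.

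The remaining genes of the list passed no test in the sex experiment either. Gclc lay at 64.7 to 90.7 CPM over all 18 samples, Gclm at 13.7 to 28.99, Txnrd1 at 43.1 to 75.2, Srxn1 at 2.87 to 4.55 and Nqo1 at 0.624 to 2.29. The average log2 difference of Gclm was -0.23 ± 0.10 (SE; edgeR adjusted p = 0.516), and the highest samples were again male WT 5 and female WT 2, at 28.99 and 21.1 CPM. Those of Gclc, Txnrd1, Srxn1 and Nqo1 were 0.05 ± 0.06, 0.02 ± 0.09, -0.13 ± 0.10 and -0.26 ± 0.21, with 95% intervals of -0.08 to 0.19, -0.19 to 0.22, -0.34 to 0.09 and -0.70 to 0.19.

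How the genes vary together was asked over the 18 samples of the sex experiment, in 45 pairs of genes on log2 CPM with a pseudocount of 0.5 and two-sided permutation tests of 100000 resamples. Of the 45 pairs, 13 passed by Pearson's r after Benjamini-Hochberg adjustment, and 1 passed by Spearman's rho as well: Nfe2l2 with Prdx1. For this pair r was 0.68 (permutation p = 0.00171, adjusted 0.0107) and rho was 0.82 (permutation p = 7.00e-05, adjusted 0.00315). Without male WT 4 and female KO 2, the samples farthest from the Nfe2l2 median, r was 0.76. Within WT (8 samples) r was 0.46 and rho 0.40, and within KO (10 samples) r was 0.51 and rho 0.64, with no test. The permutations ignored sex and genotype, so their p-values do not separate covariation between samples from differences between groups. Of the pairs that passed by r and not by rho, Slc7a11 with Gsr had the largest, r = 0.89 (permutation p = 0.000260, adjusted 0.00349) and rho = 0.43 (permutation p = 0.0726, adjusted 0.204), and r was 0.39 without male WT 5 and female WT 2. The summed neutrophil markers were followed by Gsr with r = 0.98 and rho = 0.92 (permutation p = 1.00e-05 for each, the smallest the resamples can give; adjusted 0.0001 over 10 genes), and r was 0.91 without male WT 5 and female WT 2. Nqo1 also passed against the markers, with r = 0.68 (adjusted permutation p = 0.00508) and rho = 0.60 (adjusted permutation p = 0.0448), falling to r = 0.40 without them. The part of the neutrophil markers in the Gsr and Nqo1 values was not tested further.

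**Figure D5:**
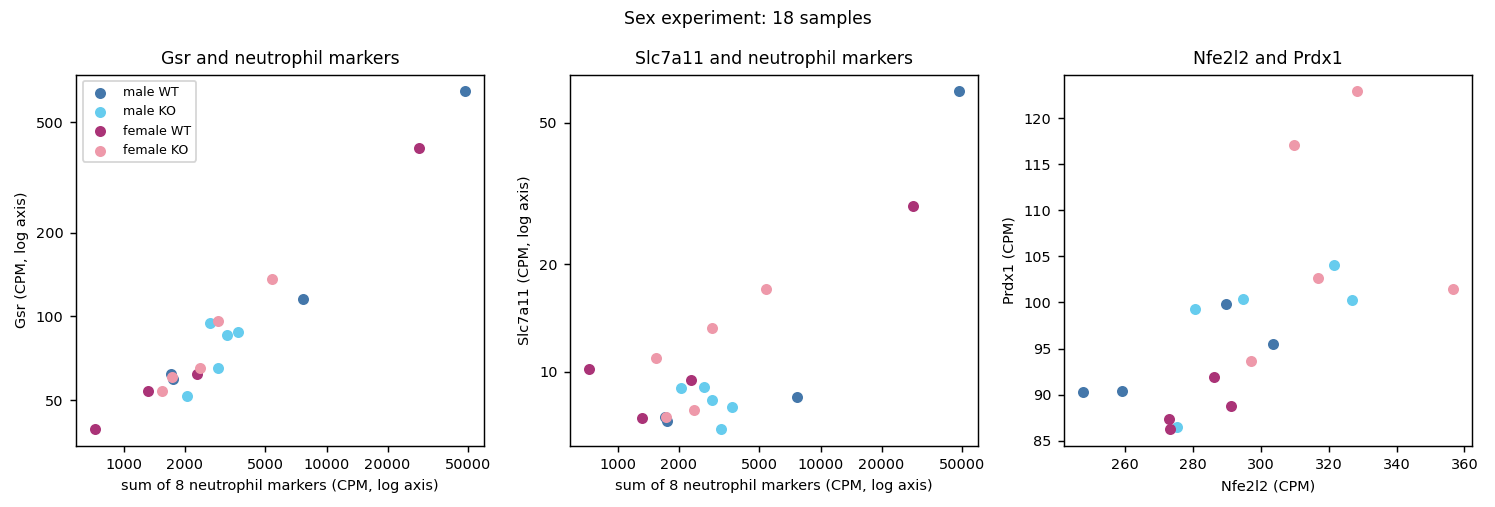
The 18 samples of the sex experiment: Gsr and Slc7a11 against the summed level of 8 neutrophil markers, with all axes in CPM on log scales, and Prdx1 against Nfe2l2 in CPM on linear axes; colours give sex and genotype. Gsr follows the markers over the whole range, while Slc7a11 is high in the 2 samples richest in them.

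The other genes of the pathway were taken from 8 lists of 74 genes written for this description, 73 of which were tested in the LPS experiment. Under LPS in KO 29 of the 73 were called (21 higher, 8 lower) and in WT 27 (18 higher, 9 lower), where 26.2% and 28.1% of all tested genes were. KO against WT called 0 of them in ns, in LPS, in either sex and on average, and so did both interactions, by edgeR; at an unadjusted p under 0.05 there were 11 in ns, 5 in LPS, 7 in males, 10 in females and 14 averaged over the sexes, where 9.27%, 6.10%, 6.85%, 5.22% and 9.02% of all tested genes had one. Of the regulators of NRF2 (12 genes, among them Keap1, Bach1 and the small MAF genes), 2 were higher under LPS in KO, and in WT 1 was higher and 1 lower. In KO these were Nfe2l1 and Maff, a small MAF gene at 1.81 ± 0.35 (SE; edgeR adjusted p = 0.000245), which was named after its values were seen. The genotype-by-LPS interaction of Maff was -0.34 ± 0.53 (SE; edgeR adjusted p = 0.883), so its rise is not shown to be particular to KO. Of the 2 called in KO, the 1 with a mean of at least 5 CPM was Nfe2l1, a relative of NRF2 that drives proteasome genes. It was at 1.02 ± 0.33 (SE; edgeR adjusted p = 0.0204) in KO and 0.72 ± 0.38 (edgeR adjusted p = 0.157) in WT. Without the 4 libraries rich in mitochondrial counts Nfe2l1 passed in WT as well (0.84 ± 0.22, edgeR adjusted p = 0.00390), and the regulators called were 3 in KO, all higher, and 4 in WT, of which 3 higher. The share of all genes called also rose under this setting, to 41.0% in KO and 38.7% in WT.

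Of 16 further glutathione genes, 4 were higher and 2 lower under LPS in KO, and 3 higher and 2 lower in WT. Of all tested genes, 26.2% were called in KO and 28.1% in WT. Gsto1, an omega-class glutathione transferase, rose by 1.00 ± 0.18 in KO and 1.66 ± 0.21 in WT (edgeR adjusted p = 7.04e-05 and 4.79e-07), and Glrx, glutaredoxin, by 1.17 ± 0.41 and 1.86 ± 0.49 (edgeR adjusted p = 0.0337 and 0.00455). Gstm1, a mu-class transferase, had log2 fold changes of -1.09 ± 0.25 and -1.88 ± 0.29 (edgeR adjusted p = 0.00132 and 1.60e-05) and so fell in both. Reads of Gstm1 may be split with other members of its gene cluster. Without the 4 libraries rich in mitochondrial counts the calls among these 16 genes came to 8 higher and 2 lower in KO and 6 higher and 3 lower in WT, where 41.0% and 38.7% of all genes were called.

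Of 10 further thioredoxin and peroxiredoxin genes, 4 were higher and 1 lower in KO, and 2 higher and 2 lower in WT. The share of all tested genes called was 26.2% in KO and 28.1% in WT. Txnip, which binds and inhibits thioredoxin, had log2 fold changes of -1.25 ± 0.13 in KO and -0.99 ± 0.14 in WT (edgeR adjusted p = 9.72e-09 and 5.78e-06). Prdx5 rose by 1.13 ± 0.31 and 1.58 ± 0.37 (edgeR adjusted p = 0.00724 and 0.00167). Sesn2, a stress-induced sestrin, was 1.24 ± 0.43 (edgeR adjusted p = 0.0339) in KO and 0.25 ± 0.49 (edgeR adjusted p = 0.758) in WT. Of the genes that supply NADPH, 2 of the 5 tested were called, both higher in both genotypes, where 11.9% (KO) and 13.5% (WT) of all tested genes were higher. These were G6pdx at 0.87 ± 0.15 in KO and 0.53 ± 0.17 in WT, and Pgd at 0.65 ± 0.14 and 0.65 ± 0.16, the dehydrogenases of the pentose phosphate pathway.

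Of 9 haem and iron genes beyond Hmox1, 2 were higher and 1 lower in KO, and 3 higher and 1 lower in WT. Over all tested genes, 26.2% were called in KO and 28.1% in WT. Without the 4 libraries rich in mitochondrial counts there were 4 higher and 3 lower in KO, and 4 higher and 1 lower in WT, again where 41.0% and 38.7% of all genes were called. Fth1, the ferritin heavy chain that stores iron, rose by 1.96 ± 0.14 in KO and 2.27 ± 0.16 in WT (edgeR adjusted p = 8.45e-12 and 1.96e-11). Slc40a1, the iron exporter ferroportin, had log2 fold changes of -2.11 ± 0.19 and -2.28 ± 0.22 (edgeR adjusted p = 1.31e-09 and 7.16e-09), so it fell. Of the 4 superoxide and hydrogen peroxide enzymes, Sod2, the mitochondrial superoxide dismutase, rose by 2.32 ± 0.27 in KO and 3.56 ± 0.33 in WT (edgeR adjusted p = 1.08e-07 and 2.92e-09), and Cat, catalase, changed by -0.59 ± 0.11 and -0.74 ± 0.13 (edgeR adjusted p = 0.000117 and 4.53e-05).

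Of 7 genes of the phagocyte NADPH oxidase and nitric oxide synthase, 5 were higher and 0 lower in KO, and 3 higher and 0 lower in WT. Over all tested genes 11.9% were higher and 14.2% lower in KO, and 13.5% higher and 14.6% lower in WT. With only 7 genes, the lack of lower calls is not read as a result. Ncf1, a cytosolic oxidase subunit, rose by 0.86 ± 0.20 and 0.96 ± 0.23 (edgeR adjusted p = 0.00160 and 0.00220), and Cybb, the catalytic subunit, was 2.25 ± 0.44 in KO (edgeR adjusted p = 0.000272) and 1.17 ± 0.49 in WT (edgeR adjusted p = 0.0739). Without the 4 libraries rich in mitochondrial counts Cybb was 1.18 ± 0.47 in WT and passed narrowly (edgeR adjusted p = 0.0498). Cybb is also a neutrophil gene, and the part of the neutrophil markers in its values was not tested. Of 10 further NRF2 targets, 1 was higher and 3 lower in KO, and 2 higher and 2 lower in WT. Calls over all tested genes came to 26.2% in KO and 28.1% in WT. Abcc4, a drug and nucleotide exporter, rose by 1.20 ± 0.25 and 0.80 ± 0.29 (edgeR adjusted p = 0.000563 and 0.0370). Ephx1, microsomal epoxide hydrolase, had log2 fold changes of -2.28 ± 0.21 and -2.40 ± 0.24 (edgeR adjusted p = 1.35e-09 and 1.29e-08), and Cbr1, a carbonyl reductase, of -0.67 ± 0.11 and -0.72 ± 0.13 (edgeR adjusted p = 4.54e-05 and 0.000140). The further targets called thus went both ways under LPS, as did the calls over all tested genes.

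On build GRCm39, as the sex table gives the spans, Nfe2l2 lies at chr2:75505860-75535007 and Slc7a11 at chr3:50319385-50403947, both on the minus strand, and Nqo1 at chr8:108114856-108139012, also minus. On the plus strand are Hmox1 (chr8:75820246-75827221), Gsr (chr8:34143266-34188190), Srxn1 (chr2:151946738-151953296), Gclm (chr3:122039206-122060864), Prdx1 (chr4:116542796-116557196), Gclc (chr9:77661817-77701771) and Txnrd1 (chr10:82669785-82733558). Gene lengths in that table are whole spans, introns included, so an overlapping gene may share reads. Gm6061 lies inside Gclm and held 2.01% to 6.24% as many counts as it, and AV051173 overlaps 424 bases of Prdx1 on the opposite strand and held 5.99% to 8.10% as many.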

How the data were processed

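RNA was counted per gene in 18 libraries of the sex experiment and 33 of the LPS experiment; 6 further libraries labelled as repeats were not analysed here. The deposited values are whole-number read counts, not normalized. Reads were handled by the authors with FastQC, STAR 2.6.1, featureCounts (Subread) and DESeq2 on GRCm39, per the submitters' processing notes; whether strand was used is not given in the sources used here. When compared with the start and end given, gene length in the sex table equals the whole gene span for all 50565 genes. Among counts from 2 to 21, 82.3% to 90.8% were even in the sex libraries and 53.3% to 58.4% in the LPS libraries, so the number of independent fragments may be lower than the counts.

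Each table was fitted whole with edgeR 4.0.16 in R 4.3.3 (TMM scaling, filterByExpr, robust quasi-likelihood F test, Benjamini-Hochberg adjustment, threshold 0.05), 1 coefficient per group, plus the library set in the LPS experiment. 31709 and 17954 genes were tested, with 14 and 25 residual degrees of freedom. The typical biological coefficient of variation was 35.3% and 42.3%, which limits the changes that can pass. WT LPS 8 and 9 were summed, leaving 32 samples. The WT libraries of number 2 had coefficients of their own. The script was tested on simulated data with known changes and the same spread for every gene. Those data held no libraries that stand apart, so they check the script and not the calls reported here.

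The members, lists and tests were chosen with earlier results of these data known. All 10 members are named; of each other list, at most the 3 called genes with the largest log2 fold change for LPS in KO and a mean of at least 5 CPM. Beyond that rule P2ry12 and Saa3 checked the labels. Alternatives were RLE scaling, DESeq2 1.42.0, other filters, a fold threshold, other sample sets, the replicate block, no set covariate and each library left out. A further 3 were chosen after seeing the data: leaving out the libraries over 5% mitochondrial counts, a neutrophil marker covariate (mean log2 CPM), and leaving out male WT 5 and female WT 2.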

Additional observations from a re-analysis of the deposited data

Results flagged for a closer look

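In 15 of 80 gene and group combinations with 4 to 10 samples, 1 sample lay far from the nearest other in relation to the whole range of its group. The combinations share libraries and are not independent, so this number is not set against a rate by chance. Of the 15, 8 are in libraries rich in mitochondrial counts. KO LPS 5 had the lowest Gclm of its group at 12.9 CPM, the lowest Txnrd1 at 23.1 and the highest Prdx1 at 535. KO ns 6 had the lowest Txnrd1 of its group at 16.3 CPM, the highest Slc7a11 at 10.7 and the highest Prdx1 at 746. WT LPS 7 had the highest Prdx1 at 1126 CPM and the highest Nfe2l2 at 519.

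A further 5 are in the samples rich in neutrophil markers. Male WT 5 had the highest Gsr of its group at 644 CPM, the highest Slc7a11 at 61.2 and the highest Txnrd1 at 75.2. Female WT 2 had the highest Gsr at 404 CPM and the highest Slc7a11 at 29.2. Outside these libraries, Slc7a11 was high in KO LPS 7 at 24.9 CPM, and Prdx1 was low in male KO 3 at 86.5.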

How the results depend on the processing

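For the LPS response in KO (5 genes called), the count was 1 in library set 2 alone, 2 with a log2 fold change of at least 1 required as well and 3 without a filter, and 5 to 6 with a library left out. For LPS in WT (6 called), it was 1 in set 2 alone, 0 with the number 2 libraries in their labelled groups, and 4 to 7 with a library left out. The 1 call between KO and WT under LPS, Slc7a11, went to 0 in each set alone, with only the groups compared (-2.40 ± 0.53, edgeR adjusted p = 0.416), without number 2 in all groups, without the libraries over 5% mitochondrial counts and with the number 2 libraries in their labelled groups, and was 0 to 1 with a library left out. It was kept with DESeq2, RLE scaling, no filter and 5 CPM. Averaged over the sexes, 1 gene (Nfe2l2) in place of 0 was called at a mean of at least 5 CPM. The other comparisons of KO with WT stayed at 0 under all alternatives run, as they did with any library left out. No called gene changed sign, and the causes were not tested. The share of all tested genes called differed between the settings for which it is given above. For the LPS responses it is not given for the fold threshold, no filter, the compared groups alone or a library left out. For KO against WT it is not given for any alternative, 5 CPM included. Changes in these counts are therefore not read as particular to the genes of the list.

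Same-numbered samples were not closer in every case: their deviations from the group means correlated by 0.27 on average in the sex experiment (-0.32 to 0.54) with 7 of 8 pairs over 0.1, and by 0.29 in the LPS experiment (-0.35 to 0.92), with 21 of 32 over 0.1. Pairs with different numbers averaged -0.06 and 0.18. Not every pair passed 0.1, and the main fits left the number out. Same-numbered samples were closer on average, and whether they share a batch was not tested. With the number as a replicate block, 5 genes were called for LPS in KO, 6 in WT and 0 between KO and WT under LPS (Slc7a11 -2.21 ± 0.51, edgeR adjusted p = 0.144). The share of all tested genes called with this block is not given here. The covariation count of 1 pair was the same under both of its alternatives. Depth limits the precision of Nqo1 in the LPS experiment, where it rests on 2 to 58 counts per sample in the fitted WT and KO groups.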
